A study of Mus musculus with 20 samples.

Results

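Genes of the YAP/TAZ pathway were followed across the kidneys, chosen by name as 9 of the 13842 genes in the table: the coactivators *Yap1* and *Wwtr1* (which encodes TAZ), their DNA-binding partner *Tead1*, the inhibitory kinases *Lats1* and *Lats2*, and the target genes *Ctgf*, *Cyr61*, *Ankrd1* and *Amotl2*. All 9 were measured in every kidney. The RNA came from the left kidneys of 20 male mice, 5 in each of 4 groups, taken a week after sham surgery or after ligation of the left ureter (unilateral ureteral obstruction, UUO). Both genotypes carried *Pax8*-Cre, a recombinase gene that is expressed in epithelial cells along the whole kidney tubule and also in the thyroid. KDM6A-TubKO mice carried in addition, on their single X chromosome, a floxed *Kdm6a*, so that the exon for the JmjC domain of the histone H3K27 demethylase KDM6A is removed in Cre-expressing cells. KDM6A-Ctrl mice carried the recombinase without the floxed gene, so the effect of the floxed allele itself was not separated from that of its loss. The ages of these 20 mice are not given in the sources used here.

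In the Hippo pathway, MST kinases and their scaffolds activate LATS1 and LATS2, which phosphorylate YAP and TAZ and so keep them out of the nucleus. Unphosphorylated YAP and TAZ enter the nucleus, bind TEAD proteins on DNA and switch on genes such as *Ctgf*, *Cyr61* and *Ankrd1*. *Lats2* and *Amotl2*, whose products hold YAP and TAZ back, are themselves targets. Stretch, a stiff matrix and actin tension raise YAP and TAZ activity, and in obstructed or injured kidneys both proteins are known from tubule cells and myofibroblasts. The activity of YAP and TAZ is set largely by phosphorylation and location, which RNA levels do not show.

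Levels are given in FPKM, a fragment count divided by transcript length and library size. They can be compared between genes per unit length. Tests used log2(FPKM + 1), and a difference on this scale understates the change of a gene with a low level. "Rose" and "fell" are used for a Benjamini-Hochberg adjusted p under 0.05 from limma, adjusted over all genes. FPKM hold no counts, so the depth of each library and its counting error are unknown. Each library has its own mouse identifier, but some identifiers within a group share a number, whose meaning is not given in the sources. Whether such mice are independent of each other is not known. Each limma p-value rests on the spread between kidneys within groups, estimated over the 4 groups and shared in part between genes. Summed over genes, the FPKM of a sham kidney lay between 347739 and 387375 and those of a UUO kidney between 298467 and 316964. The median difference of all genes between UUO and sham kidneys was 0.35 on the log2 scale in KDM6A-Ctrl mice and 0.39 in KDM6A-TubKO mice. Rescaling the libraries to a common upper quartile brought these medians to 0.14 and 0.18, and quantile normalization brought them to -0.05 and -0.04. *Kdm6a* was 2.05 ± 0.217 FPKM in KDM6A-Ctrl sham, 1.20 ± 0.359 in KDM6A-TubKO sham, 2.96 ± 0.634 in KDM6A-Ctrl UUO and 3.04 ± 0.853 in KDM6A-TubKO UUO kidneys (mean ± SD, n = 5). The gene value also counts exons outside the removed one and cells without Cre, so it is a weak check of the genotype labels, and in UUO kidneys it did not separate them. One library stood apart among the sham kidneys. KDM6A-Ctrl sham mouse 3 had 1351 summed FPKM of 12 injured tubule markers, against 422 to 678 in the other 9 sham kidneys.

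The start regions of the members are shown first because TEAD proteins, through which YAP and TAZ reach DNA, bind sites whose core letters are GGAATG (or CATTCC on the other strand). RefSeq start regions (GRCm38.p6, 250 bases before to 50 after the start, 300 in all) were held for 7 of the 9 genes, with 2 entries each for *Wwtr1* and *Lats2*. None was held for *Ctgf* or *Tead1*, so these genes were not searched. GGAATG on either strand occurred in the start regions of *Ankrd1*, *Cyr61*, *Amotl2*, *Yap1*, *Wwtr1* (both entries, the same site) and *Lats2* (1 of its entries), and not in that of *Lats1*. Of all 32851 start regions 14.7% hold it. Neither TGANTCA, the site of AP-1 factors (7.81% of all start regions), nor a CArG box, the site of SRF (1.63%), occurred in any of the start regions held for members, and no match overlapped another motif. The entries with a match of the targets *Ankrd1*, *Cyr61* and *Amotl2* and of *Lats2*, a kinase that is also a target, are printed 5′ to 3′ along the gene with the match in capitals. They are chr19:36119795-36120094 (minus strand) for *Ankrd1*, chr3:145649936-145650235 (minus strand) for *Cyr61*, which RefSeq lists as *Ccn1*, chr9:102717554-102717853 (plus strand) for *Amotl2* and chr14:57746074-57746373 (minus strand) for *Lats2*.
Ankrd1: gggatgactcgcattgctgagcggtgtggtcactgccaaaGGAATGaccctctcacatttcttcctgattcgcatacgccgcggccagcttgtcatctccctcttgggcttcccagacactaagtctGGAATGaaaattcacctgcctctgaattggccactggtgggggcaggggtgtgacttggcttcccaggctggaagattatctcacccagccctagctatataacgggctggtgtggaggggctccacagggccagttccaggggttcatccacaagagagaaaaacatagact
Cyr61: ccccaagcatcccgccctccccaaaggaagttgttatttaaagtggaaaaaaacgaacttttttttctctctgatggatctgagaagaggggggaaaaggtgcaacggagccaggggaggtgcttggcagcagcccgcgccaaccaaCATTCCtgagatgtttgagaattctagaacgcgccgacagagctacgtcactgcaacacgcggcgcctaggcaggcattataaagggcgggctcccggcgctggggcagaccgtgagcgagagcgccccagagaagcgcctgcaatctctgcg
Amotl2: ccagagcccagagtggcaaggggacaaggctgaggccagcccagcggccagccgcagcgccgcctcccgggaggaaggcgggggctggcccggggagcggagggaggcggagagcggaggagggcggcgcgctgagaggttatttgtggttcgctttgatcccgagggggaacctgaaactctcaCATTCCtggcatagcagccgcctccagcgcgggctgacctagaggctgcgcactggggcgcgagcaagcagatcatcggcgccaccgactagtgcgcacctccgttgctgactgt
Lats2: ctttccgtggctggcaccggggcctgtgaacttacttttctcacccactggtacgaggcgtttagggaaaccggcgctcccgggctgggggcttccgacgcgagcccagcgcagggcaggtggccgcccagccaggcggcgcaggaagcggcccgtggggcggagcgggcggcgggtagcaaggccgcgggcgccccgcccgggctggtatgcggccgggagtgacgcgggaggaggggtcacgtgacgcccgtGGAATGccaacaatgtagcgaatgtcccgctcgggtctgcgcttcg
The matches in *Ankrd1* begin 210 and 123 bases before the start, that in *Cyr61* 103 and that in *Amotl2* 65 bases before it, and that in *Lats2* 4 bases after the first transcribed base. These are matches of letters, and binding was not measured.

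After a week of obstruction the target genes *Ankrd1*, *Cyr61* and *Ctgf* rose most among the 9, whereas the target *Amotl2* differed less than *Yap1* and *Lats2* in both genotypes. In KDM6A-Ctrl mice 7 of the 9 genes rose with UUO and none fell, where 56.7% of all genes rose and 15.1% fell. Over all genes the 7844 that rose and 2085 that fell became 5791 and 3373 with upper quartile rescaling, or 3991 and 4848 with quantile normalization, so a share of rising genes rests on the scaling. Of the 9 members, 5 rose and 0 fell with upper quartile rescaling, and 5 rose and 1 (*Lats1*) fell with quantile normalization. The median change of the 9 was 0.74 on the log2 scale, against 0.35 over all genes. Per kidney, 6 of the 9 (*Ctgf*, *Cyr61*, *Ankrd1*, *Yap1*, *Lats1* and *Lats2*) were higher in every UUO kidney than in any sham kidney of this genotype, as were 45.8% of all genes. In KDM6A-TubKO mice these 6 genes rose and none fell, where 57.9% of all genes rose and 16.7% fell (8020 and 2307, or 6179 and 3541 with upper quartile rescaling, and 4384 and 4835 with quantile normalization). With either rescaling 5 of the 9 members rose there and 1 (*Wwtr1*) fell. The median over the 9 was 0.62, against 0.39 over all genes. Their groups again did not overlap, which holds for 50.1% of all genes there.

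**Figure D1:**
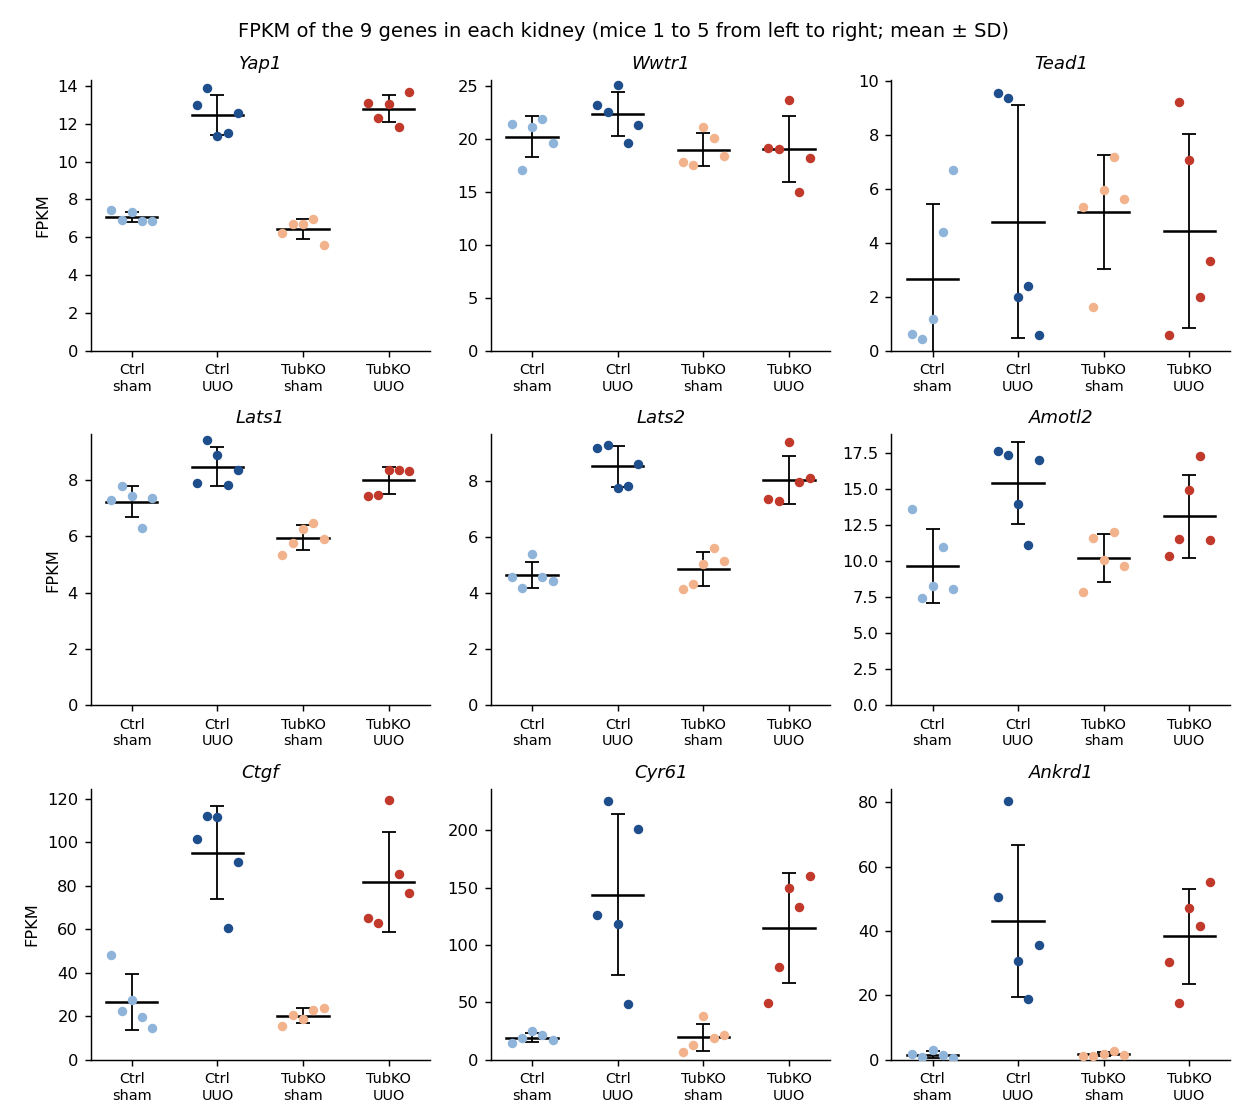
Each dot is the FPKM (vertical axis, from 0) of 1 kidney, in the order of mice 1 to 5 within the 4 groups on the horizontal axis, and lines and bars are the mean and SD of 5 mice. *Ankrd1* is at most 3.11 in sham and at least 17.5 in UUO kidneys, whereas *Wwtr1* overlaps throughout and *Tead1* scatters within every group.

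*Ankrd1*, which encodes an ankyrin repeat protein of muscle that is commonly used to read YAP activity, lies at chr19:36111965-36119844 (minus strand; ENSMUSG00000024803.8). It measured 1.94, 0.825, 3.11, 1.46 and 0.598 FPKM in KDM6A-Ctrl sham mice 1 to 5. After UUO it measured 50.6, 80.3, 30.7, 18.7 and 35.7 FPKM. The lowest obstructed kidney, that of mouse 4, thus still stood several times above the highest sham kidney. In KDM6A-TubKO mice the values were 1.28, 1.16, 1.68, 2.69 and 1.57 FPKM after sham surgery and 30.3, 17.5, 47.1, 41.6 and 55.1 FPKM after UUO. The ratio of the group means, UUO over sham, was 27.2 for KDM6A-Ctrl and 22.8 for KDM6A-TubKO mice, log2 differences of 4.02 (standard error 0.34, limma adjusted p = 6.13e-09) and 3.80 (adjusted p = 9.30e-09).

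*Cyr61* (chr3:145646976-145649981, minus strand; ENSMUSG00000028195.4) encodes CCN1, a secreted matrix protein that binds integrins. KDM6A-Ctrl sham kidneys had 14.4, 19.1, 24.6, 21.4 and 16.8 FPKM and KDM6A-Ctrl UUO kidneys 126, 225, 118, 48.9 and 201 FPKM. KDM6A-TubKO sham kidneys had 6.72, 12.7, 38.03, 19.1 and 21.5 FPKM and UUO kidneys of that genotype 49.8, 80.5, 150.1, 133 and 160.4 FPKM. No obstructed kidney fell within the sham range of its genotype, but the UUO kidneys of each genotype covered a wide range, with mouse 4 lowest among KDM6A-Ctrl mice and mouse 1 among KDM6A-TubKO mice. The ratio of the means was 7.47 for KDM6A-Ctrl and 5.85 for KDM6A-TubKO mice, with log2 differences of 2.68 (standard error 0.42, limma adjusted p = 1.36e-05) and 2.56 (adjusted p = 1.96e-05).

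*Ctgf* (chr10:24595442-24598683, plus strand; ENSMUSG00000019997.11) encodes CCN2, connective tissue growth factor, a secreted protein that promotes matrix formation. The FPKM were 47.9, 22.6, 27.3, 19.7 and 14.6 in KDM6A-Ctrl sham kidneys and 101, 112, 112, 60.4 and 90.8 in KDM6A-Ctrl UUO kidneys. The KDM6A-TubKO kidneys had 15.4, 20.5, 18.6, 23.0 and 23.7 after sham surgery and 64.9, 62.6, 119, 85.4 and 76.6 after UUO. The groups did not overlap in either genotype, and KDM6A-Ctrl sham mouse 1 was high among sham kidneys. The log2 differences were 1.89 (standard error 0.25, limma adjusted p = 1.50e-06) and 1.94 (adjusted p = 8.61e-07), and the means rose 3.60-fold and 4.04-fold.

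*Amotl2* (chr9:102716672-102733418, plus strand; ENSMUSG00000032531.15), whose product is an angiomotin that binds YAP and holds it at junctions and actin, moved least of the targets. Its FPKM were 13.6, 7.46, 8.29, 11.0 and 8.09 in KDM6A-Ctrl sham and 17.7, 17.4, 14.0, 11.1 and 17.1 in KDM6A-Ctrl UUO kidneys. KDM6A-TubKO kidneys had 7.87, 11.7, 10.1, 12.03 and 9.64 after sham surgery and 10.4, 11.5, 15.0, 17.3 and 11.5 after UUO. Sham and UUO kidneys overlapped in both genotypes, in KDM6A-Ctrl mice through UUO mouse 4. It rose in KDM6A-Ctrl mice by 0.63 on the log2 scale (limma adjusted p = 0.00224), a call that upper quartile rescaling (0.37, adjusted p = 0.0578) and quantile normalization (0.33, adjusted p = 0.0905) end. In KDM6A-TubKO mice the difference was 0.32 (95% interval -0.03 to 0.67, limma adjusted p = 0.0912), with 0.05 after upper quartile rescaling and about 0 after quantile normalization. The difference between the genotypes' responses was -0.32 (95% interval -0.81 to 0.18, limma adjusted p = 0.528).

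Of the coactivators, *Yap1* RNA rose and *Wwtr1* RNA was not called. *Yap1* (chr9:7931999-8004596, minus strand; ENSMUSG00000053110.13) had FPKM of 7.42, 6.91, 7.31, 6.86 and 6.86 in KDM6A-Ctrl sham and 13.0, 13.9, 11.4, 11.5 and 12.6 in KDM6A-Ctrl UUO kidneys. With KDM6A-TubKO the FPKM were 6.25, 6.73, 6.70, 6.96 and 5.62 after sham surgery and 13.1, 12.3, 13.0, 11.9 and 13.7 after UUO. The kidneys of a group lay close together: the SD within groups was 0.09 on the log2 scale, and only 4.52% of all genes had a smaller one. The log2 differences were 0.74 (limma adjusted p = 1.01e-08) and 0.89 (adjusted p = 5.84e-10), for means that rose 1.76-fold and 1.98-fold. They shrank to 0.48 and 0.62 with upper quartile rescaling and to 0.40 and 0.53 with quantile normalization, all still called.

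*Wwtr1* (chr3:57455649-57575910, minus strand; ENSMUSG00000027803.14) had the higher level of the coactivators per unit length in every kidney. Its FPKM were 21.4, 17.1, 21.1, 21.9 and 19.6 in KDM6A-Ctrl sham and 23.2, 22.6, 25.1, 19.6 and 21.3 in KDM6A-Ctrl UUO kidneys. For KDM6A-TubKO mice the values were 17.8, 17.5, 21.1, 20.1 and 18.4 after sham surgery and 19.1, 19.1, 23.6, 14.9 and 18.2 after UUO. The 4 groups overlapped. The log2 differences were 0.14 (95% interval -0.07 to 0.35, limma adjusted p = 0.211; -0.13 and -0.09 after the rescalings) in KDM6A-Ctrl mice and -0.01 (95% interval -0.22 to 0.20, adjusted p = 0.933) in KDM6A-TubKO mice, where upper quartile rescaling (-0.29, adjusted p = 0.0137) and quantile normalization (-0.25, adjusted p = 0.0423) call it lower. The ratio of *Wwtr1* to *Yap1* FPKM lay between 2.47 and 3.27 in the 10 sham kidneys and between 1.26 and 2.21 in the 10 UUO kidneys, which did not overlap.

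*Tead1* (chr7:112679318-112906807, plus strand; ENSMUSG00000055320.17), a DNA-binding partner of both coactivators, scattered within every group. Its FPKM were 0.620, 0.437, 1.17, 4.42 and 6.71 in KDM6A-Ctrl sham and 9.57, 9.37, 1.99, 2.42 and 0.592 in KDM6A-Ctrl UUO kidneys. In KDM6A-TubKO mice they were 5.35, 1.61, 5.98, 7.20 and 5.63 after sham surgery and 0.583, 9.21, 7.09, 1.98 and 3.33 after UUO. All 4 groups overlapped, and its SD within groups, 1.03 on the log2 scale, exceeded that of 99.6% of all genes. The log2 differences with UUO were 0.62 (95% interval -0.64 to 1.87, limma adjusted p = 0.367) and -0.38 (95% interval -1.63 to 0.88, adjusted p = 0.577), so the spread leaves room for a change of this gene in either direction.

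The kinases differed in size of response. *Lats2* (chr14:57689662-57758388, minus strand; ENSMUSG00000021959.16) had FPKM of 4.58, 4.20, 5.41, 4.59 and 4.45 in KDM6A-Ctrl sham and 9.18, 9.28, 7.75, 7.81 and 8.61 in KDM6A-Ctrl UUO kidneys. Those of KDM6A-TubKO kidneys were 4.16, 4.34, 5.05, 5.63 and 5.14 after sham surgery and 7.35, 7.30, 9.41, 7.98 and 8.11 after UUO. Sham and UUO kidneys did not overlap, with log2 differences of 0.75 (limma adjusted p = 2.13e-07) and 0.62 (adjusted p = 1.86e-06). With upper quartile rescaling these were 0.51 and 0.37, and with quantile normalization 0.36 and 0.19 (limma adjusted p = 8.06e-04 and 0.0464).

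*Lats1* (chr10:7681214-7716460, plus strand; ENSMUSG00000040021.13) had FPKM of 7.28, 7.77, 7.43, 6.28 and 7.35 in KDM6A-Ctrl sham and 7.90, 9.41, 8.89, 7.82 and 8.33 in KDM6A-Ctrl UUO kidneys. In KDM6A-TubKO mice they were 5.35, 5.75, 6.24, 6.48 and 5.91 after sham surgery and 7.43, 7.46, 8.33, 8.34 and 8.31 after UUO. It rose by 0.20 (limma adjusted p = 0.0118) in KDM6A-Ctrl mice, less than the median gene, and its direction turned after upper quartile rescaling (-0.05, adjusted p = 0.544) and quantile normalization (-0.17, adjusted p = 0.0434). In KDM6A-TubKO mice it rose by 0.37 (limma adjusted p = 6.71e-05), with 0.11 (adjusted p = 0.160) after upper quartile rescaling and -0.05 (adjusted p = 0.580) after quantile normalization. *Lats1* FPKM exceeded those of *Lats2* in every sham kidney: the ratio of *Lats2* to *Lats1* lay between 0.541 and 0.869 there and between 0.872 and 1.16 in UUO kidneys, ranges that nearly met.

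**Figure D2:**
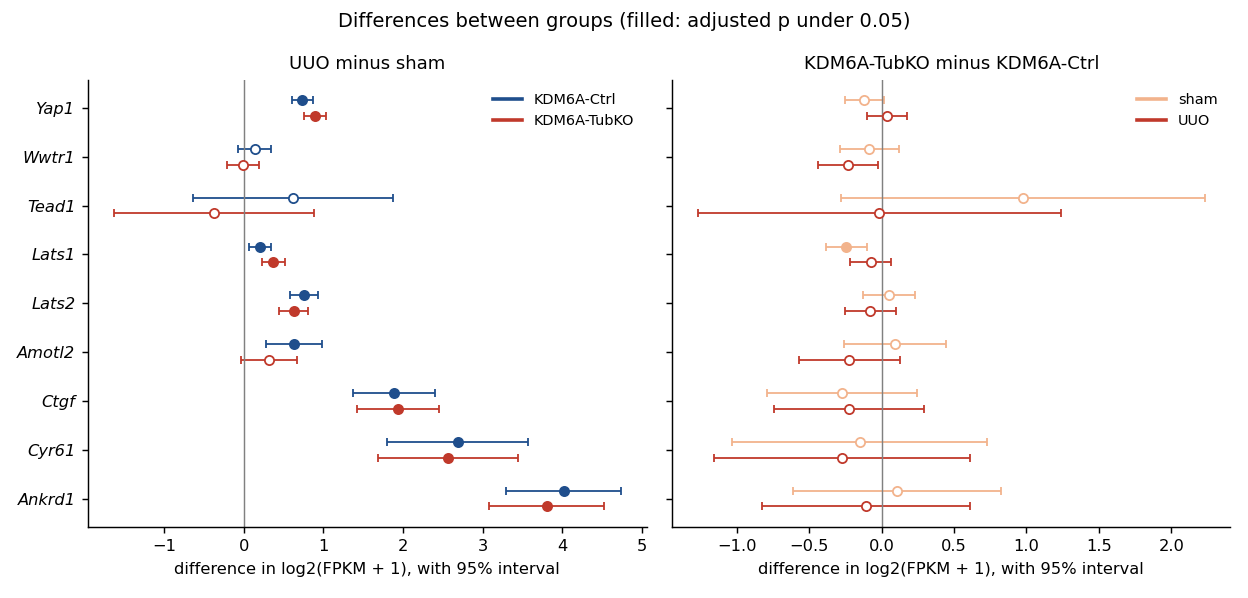
Points are differences in log2(FPKM + 1) (horizontal axis) with 95% intervals from limma, on the left UUO minus sham in each genotype and on the right KDM6A-TubKO minus KDM6A-Ctrl for each surgery; filled points have an adjusted p under 0.05. Left, *Ankrd1*, *Cyr61* and *Ctgf* differ most (1.89 to 4.02) and *Lats1* least of those called (0.20 and 0.37, of a sign that turns under quantile normalization), and right, 1 filled point (*Lats1* in sham kidneys, -0.24) remains.

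Between genotypes, 1 of the 9 genes was called in sham kidneys, where 5.84% of all genes were called. This was *Lats1*, lower in KDM6A-TubKO (5.95 ± 0.439 FPKM) than in KDM6A-Ctrl kidneys (7.22 ± 0.557 FPKM, n = 5 each) by 0.24 on the log2 scale (limma adjusted p = 0.0426). The groups overlapped through KDM6A-Ctrl mouse 4 and KDM6A-TubKO mouse 4. The call ended without any 1 of KDM6A-Ctrl sham mice 1, 2, 3 and 5, KDM6A-TubKO sham mice 1, 2, 3 and 5, KDM6A-Ctrl UUO mouse 5 or KDM6A-TubKO UUO mouse 5 (adjusted p up to 0.117), and with 6 of the other settings. In UUO kidneys 0 of the 9 were called by limma, where 5.65% of all genes were called, and 1 had an unadjusted p under 0.05, as had 24.6% of all genes. That was *Wwtr1*, with a log2 difference of -0.23 between KDM6A-TubKO and KDM6A-Ctrl kidneys (95% interval -0.44 to -0.03, limma adjusted p = 0.155). The intervals of the strongest targets were wide. For *Ankrd1* the difference in UUO kidneys was -0.11 (95% interval -0.83 to 0.61), for *Cyr61* -0.27 (-1.15 to 0.61) and for *Ctgf* -0.22 (-0.74 to 0.29), so these intervals hold differences of -0.5 on the log2 scale as well as 0.

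The response to obstruction was compared between genotypes by the interaction of genotype and surgery. Limma called 0 of the 9 genes, as against 0.0289% of all genes, and 0 of the 9 had an unadjusted p under 0.05, against 15.7% of all genes. An F-test of nested models with a library-size covariate, after Ballgown, called 0 of the 9. Among all 13842 genes it called 17 higher and 10 lower. Between genotypes in UUO kidneys this F-test also called 0 of the 9, and 2 higher and 1 lower among all genes. With so few calls over all genes, 0 of the 9 says little about the members. The differences between responses were largest, in either direction, for *Tead1* (-0.99, 95% interval -2.77 to 0.78) and otherwise between -0.32 for *Amotl2* and 0.17 for *Lats1*. For *Yap1*, with the narrowest interval, the response in KDM6A-TubKO mice was greater by 0.15 (95% interval -0.04 to 0.35). Both comparisons of UUO with sham and both of the genotypes use the same 4 groups, so they are not independent of each other.

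The order of the group means differed between members. For *Ctgf* and *Lats1* it ran from KDM6A-Ctrl UUO over KDM6A-TubKO UUO and KDM6A-Ctrl sham to KDM6A-TubKO sham, and for *Cyr61*, *Ankrd1*, *Amotl2* and *Lats2* the sham groups changed places. *Yap1* was highest in KDM6A-TubKO UUO kidneys, with 12.8 ± 0.722 FPKM, next to 12.5 ± 1.06 in KDM6A-Ctrl UUO kidneys. *Wwtr1* was highest in KDM6A-Ctrl UUO and *Tead1* in KDM6A-TubKO sham kidneys. Neighbours in these orders that had the same surgery overlapped for every member.

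Of 72 further genes of the pathway in 6 lists, 66 were measured, and *Tead4*, *Vgll1*, *Vgll2*, *Frmd1*, *Foxf2* and *Wisp3* had no values under these names. The 66 counted 53 rises and 2 falls with UUO in KDM6A-Ctrl mice (47 and 4 after upper quartile rescaling, 41 and 7 after quantile normalization). There were 52 rises and 1 fall in KDM6A-TubKO mice (46 and 6, and 38 and 7), beside 56.7% and 57.9% of all genes that rose. Every deposited gene has a mean of at least 0.5 FPKM in some group. A gene with lower means in both sham groups is thus present only if it is higher after UUO. This holds for *Tead2*, *Vgll3*, *Dchs1*, *Fat4*, *Nov*, *Wisp1* and *Wisp2*, so the direction of their change is no result. One gene, *Ptpn14*, stands in both the upstream and the target list. Among other TEAD genes and VGLL cofactors, which bind TEAD proteins in place of YAP, 4 of 4 were called higher in both genotypes (median 1.12 and 0.95). For *Tead2* and *Vgll3* that direction was fixed by the entry level of 0.5 FPKM, which leaves *Tead3* and *Vgll4*. *Tead2* rose from 0.272 to 2.88 FPKM in the means of KDM6A-Ctrl mice, *Vgll4*, a repressor of TEAD activity, from 2.49 to 6.63 FPKM and *Vgll3* from 0.340 to 1.97 FPKM.

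Of the core kinases and scaffolds, 6 of 11 rose in each genotype and none fell, with medians of 0.44 and 0.66. *Map4k4*, a kinase that acts on LATS beside the MST kinases, rose from 3.34 to 8.47 FPKM in the means of KDM6A-Ctrl mice, *Sav1*, the scaffold of the MST kinases, from 10.2 to 17.4 FPKM and *Stk38*, a kinase of the LATS family, from 6.86 to 12.1 FPKM. Of the upstream regulators, 10 of 15 rose in each genotype, with medians of 0.67 and 0.81. The 10 include *Dchs1* and *Fat4*, which are present only through their UUO means. *Ajuba*, an inhibitor of LATS at junctions, rose from 6.31 to 25.5 FPKM, *Fat1*, a protocadherin, from 5.31 to 17.2 FPKM and *Frmd6* from 0.813 to 4.09 FPKM. *Nf2*, which encodes the membrane scaffold merlin, fell in both genotypes, by 0.23 (limma adjusted p = 0.0303) with KDM6A intact and 0.24 (adjusted p = 0.0265) in KDM6A-TubKO mice. *Wwc2* fell in KDM6A-Ctrl mice (-0.18, limma adjusted p = 0.0162) and was at -0.02 in KDM6A-TubKO mice (adjusted p = 0.761).

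Of other genes known as YAP/TAZ targets, 14 of 16 rose in each genotype, with medians of 1.21 and 1.12. Beside the counts of rises in this paragraph stand 56.7% (KDM6A-Ctrl) and 57.9% (KDM6A-TubKO) of all genes, shares that rest on the scaling. *Ccdc80* rose from 1.07 to 14.4 FPKM, *Axl*, a receptor tyrosine kinase, from 2.53 to 21.1 FPKM and *Myof*, a membrane repair protein, from 1.72 to 13.7 FPKM, as means of KDM6A-Ctrl kidneys. Of the other CCN genes, the family of *Ctgf* and *Cyr61*, 3 of 3 were called higher in both genotypes, *Wisp1* by most (0.318 to 4.14 FPKM in KDM6A-Ctrl means). All 3 had sham means below 0.5 FPKM, so only a rise could be seen and this count is no result. *Wisp2* and *Nov* stayed below 1 FPKM in the group means. Of the actin and SRF genes, 17 of 18 rose in KDM6A-Ctrl mice and 16 of 18 in the other genotype, with medians of 1.05 and 0.89. In KDM6A-Ctrl mice *Flna*, which encodes the actin cross-linker filamin A, rose from a mean of 3.47 to 24.2 FPKM, *Tpm4*, a tropomyosin, from 37.1 to 185 FPKM and *Actb* from 169.6 to 639 FPKM. Between genotypes, 5 of the 66 genes were called in sham kidneys, beside 5.84% of all genes: *Nuak2* was higher in KDM6A-TubKO kidneys (0.86) and *Taok1* (-0.32), *Fat1* (-0.41), *Dock5* (-0.30) and *Fjx1* (-0.47) were lower. In UUO kidneys 4 of the 66 were called, beside 5.65% of all genes, all lower in KDM6A-TubKO kidneys: *Myof* (-0.62), *Myh9* (-0.48), *Wisp2* (-0.42) and *Dock5* (-0.31). None of the 6 lists had a gene called by the interaction.

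**Figure D3:**
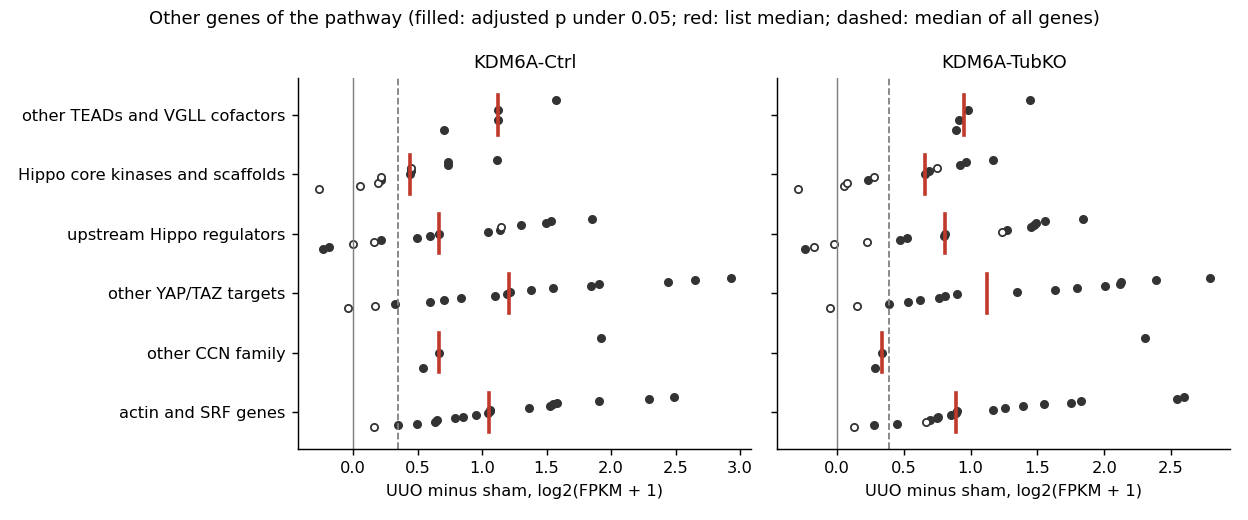
Each point is the log2 difference UUO minus sham (horizontal axis) of 1 of the further pathway genes, by list and genotype; filled points have an adjusted p under 0.05, red bars are list medians and dashed lines the median of all genes (0.35 and 0.39). List medians lie to the right of the dashed lines, from 0.44 for core kinases to 1.21 for other targets in KDM6A-Ctrl mice. The exception is that of other CCN genes in KDM6A-TubKO mice (0.34). Genes with sham means below 0.5 FPKM are present only if higher after UUO.

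The makeup of the obstructed kidneys differed from that of sham kidneys, and in RNA of whole kidney fewer cells of a type and less RNA per cell cannot be told apart. All 12 fibroblast and matrix markers rose in both genotypes, and their summed FPKM were between 21.6 and 71.3 in the 10 sham and between 431 and 648 in the 10 UUO kidneys. All 12 injured tubule markers rose (422 to 1351 in sham, 7664 to 13269 in UUO kidneys), as did 10 of 10 macrophage markers (28.0 to 75.4 and 444 to 960). All 12 proximal tubule markers fell in both genotypes, from between 2751 and 3983 to between 723 and 1641. Smooth muscle and myofibroblast markers, of which 7 of 8 rose in KDM6A-Ctrl mice and 5 of 8 in the other genotype, where 1 fell, summed to between 25.7 and 52.8 in sham and between 138 and 311 in UUO kidneys. Urothelial markers were higher with UUO for 8 of 8 in KDM6A-Ctrl mice but 4 of 8 in the other genotype. They summed to 21.0 to 68.3 in sham and 60.1 to 1089 in UUO kidneys of KDM6A-Ctrl mice. In KDM6A-TubKO mice the sums were 5.53 to 35.5 and 24.5 to 146, so sham and UUO overlapped in both genotypes. In UUO kidneys 5 of the 8 were called lower in KDM6A-TubKO mice, beside 5.65% of all genes called. With UUO 56.7% and 57.9% of all genes rose, and 15.1% and 16.7% fell. No marker of these lists was at 0 in every kidney. The part of these cell types in the changes of the YAP/TAZ genes was not tested.

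The target genes also varied among kidneys of 1 group. In KDM6A-Ctrl UUO kidneys, mouse 4 had the lowest value of *Ctgf*, *Cyr61*, *Ankrd1*, *Amotl2* and *Wwtr1*, while its summed FPKM of fibroblast markers (540.3) and macrophage markers (710.2) were within the range of the other 4. Its sum of smooth muscle and myofibroblast markers was the lowest of that group (163.8, against 176.4 to 237.8 in the other 4). Urothelial sums of mice 1 to 5 of that group were 60.1, 1089, 234.8, 478.8 and 296.4. Mouse 2, with the highest of these, had the highest *Cyr61* and *Ankrd1* and, with 111.8 FPKM against 111.6 in mouse 3, the highest *Ctgf*. Mouse 4, with the lowest target values, had the next highest urothelial sum, and mouse 1, with the lowest sum, the highest *Amotl2*. The part of these cell types in the target gene values was not tested. Over the 10 UUO kidneys, after removal of the group means, the 6 pairs of *Ctgf*, *Cyr61*, *Ankrd1* and *Amotl2* had Pearson's r between 0.63 and 0.78. *Cyr61* and *Ankrd1* were closest (r = 0.78, exact permutation p = 0.0186, and Spearman's rho = 0.83, exact permutation p = 0.0103, n = 10). After adjustment over the 12 relations computed none passed (adjusted p = 0.0900 for Pearson's r, exact permutation, and 0.123 for rho). Without the 2 kidneys farthest from the median of *Cyr61*, r was 0.79. For the other 5 pairs r was between 0.37 and 0.63 without the 2 kidneys farthest from the median of the first gene. In the 10 sham kidneys r was between 0.08 and 0.67, with none at an unadjusted exact permutation p under 0.05. For *Cyr61* and *Amotl2* there, it moved from 0.11 to -0.43 when the 2 kidneys farthest from the median of *Cyr61* were left out. Without KDM6A-Ctrl UUO mouse 4, r in UUO kidneys was between 0.45 and 0.65.

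**Figure D4:**
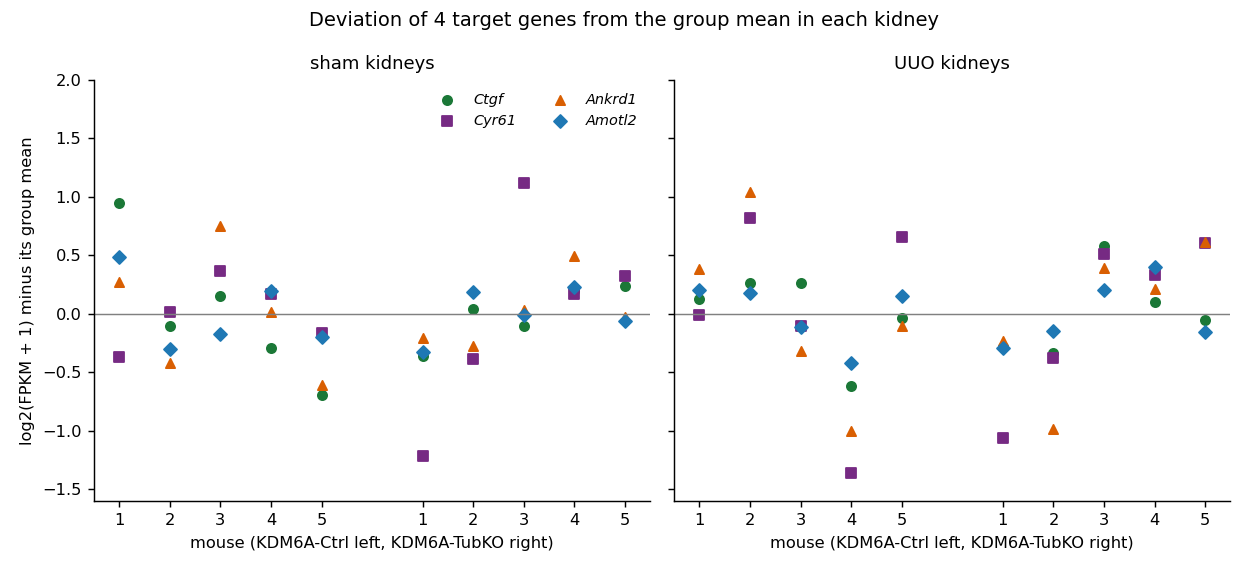
Symbols show log2(FPKM + 1) minus its group mean (vertical axis) for 4 target genes in each kidney (horizontal axis, mice 1 to 5 of KDM6A-Ctrl on the left and of KDM6A-TubKO on the right of each panel). In KDM6A-Ctrl UUO mouse 4 all 4 genes are below the mean, and over all UUO kidneys the pairs had r of 0.63 to 0.78.

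Across the 20 kidneys, sham and UUO pooled with the 4 group means removed, the genes that varied most like a member were named as a description over 10476 genes. For *Ctgf* it was *Filip1l* (r = 0.92), whose name comes from its likeness to a binder of filamin A and which also stands in the actin list, followed by *Ppp2r5c* and *Ppp4r2*, which encode parts of protein phosphatases (both 0.86). For *Ankrd1* it was *Fosl2*, an AP-1 factor (0.86), *Klf6*, a zinc finger factor (0.84), and *Pprc1* (0.82). *Amotl2* shared *Ppp2r5c* with *Ctgf* (0.79), ahead of *Sept7* (0.77) and *Acsl4* (0.74). *Cyr61* was closest to *Zscan21* (0.80), *Nufip2* (0.79) and *1810013L24Rik* (0.78). *Yap1* was closest to *Pip4k2b* (0.84), *Pom121* (0.83) and *Adam10* (0.80), and *Wwtr1* to *Bag2* (0.81), *Arhgef28* (0.78) and *Arrb1* (0.77). For these members the 99th percentile of r over the 10476 genes was between 0.58 and 0.65. The values of a kidney share a library, so depth and quality of a library can enter many genes of a kidney at once, though not all to the same degree.

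Single transcripts were listed for each member, 19 in all among 26228. In each genotype 8 of the 19 rose with UUO and none fell. Among all transcripts of KDM6A-Ctrl mice 26.5% rose with UUO while 9.83% fell, and among those of KDM6A-TubKO mice 28.1% rose while 11.7% fell. Both listed *Ctgf* transcripts were among them. *Ctgf-203* keeps an intron of 371 bases (chr10:24596944-24597314) that *Ctgf-201* lacks, and its coding part is 879 instead of 1044 bases. It measured 1.39, 1.19, 2.25, 1.06 and 0.00375 FPKM in KDM6A-Ctrl sham kidneys and 12.8, 9.84, 6.96, 8.23 and 13.1 FPKM after UUO. In KDM6A-TubKO mice it measured 0.941, 2.76, 0.280, 1.86 and 1.13 FPKM and 13.2, 11.2, 15.7, 19.5 and 16.5 FPKM. It rose by 2.42 (limma adjusted p = 2.99e-06) and 2.83 (adjusted p = 3.69e-07) on the log2 scale, against 1.80 and 1.77 for *Ctgf-201*. Its share of the sum of both was between 0.0215% and 11.3% in the sham kidneys and between 5.24% and 19.3% in the UUO kidneys, which overlap.

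*Yap1-201* holds a coding exon of 48 bases (chr9:7950492-7950539) that *Yap1-202* lacks. In KDM6A-TubKO mice *Yap1-201* rose by 1.25 (limma adjusted p = 2.96e-04) and *Yap1-202* by 0.65 (adjusted p = 0.00257). In KDM6A-Ctrl mice *Yap1-201* measured 8.19, 3.67, 4.14, 6.12 and 3.94 FPKM after sham surgery and 14.6, 4.51, 5.67, 9.12 and 10.4 FPKM after UUO. These overlap, and the call for it (0.62, limma adjusted p = 0.0491) ended without any 1 of 15 mice, among them KDM6A-Ctrl UUO mouse 1 (0.43, adjusted p = 0.148). *Yap1-202* rose by 0.76 in KDM6A-Ctrl mice (limma adjusted p = 7.21e-04). *Lats2-201* rose by 0.99 and 0.78 (limma adjusted p = 9.47e-06 and 1.06e-04), while *Lats2-207*, with a shorter coding part, was at -0.59 and -0.50 (adjusted p = 0.154 and 0.214).

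The division of a gene's reads among its transcripts was erratic for some members. *Wwtr1-202*, which starts upstream of *Wwtr1-201* and has a longer coding part, measured 17.4 and 6.71 FPKM in KDM6A-Ctrl UUO mice 3 and 4 and 7.11 and 8.47 FPKM in KDM6A-TubKO sham mice 3 and 4, and was at or below 0.0110 FPKM in the other 16 kidneys. *Amotl2-201* was at 2.01 FPKM in KDM6A-Ctrl UUO mouse 1 and 2.60 FPKM in KDM6A-TubKO UUO mouse 4, where the gene as a whole had 17.7 and 17.3 FPKM. Of the 4 *Tead1* transcripts none was called in either genotype.

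**Figure D5:**
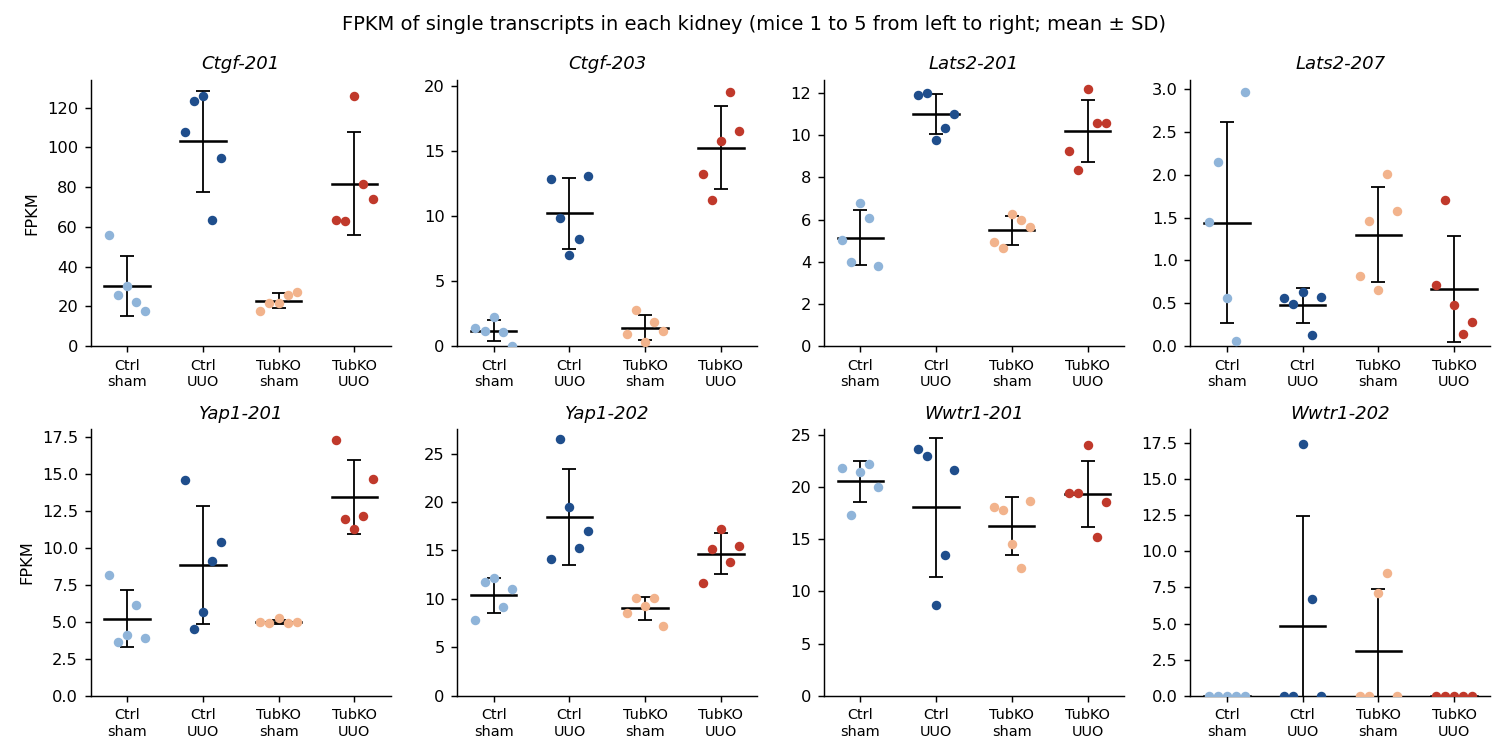
Each dot is the FPKM of 1 transcript in 1 kidney (vertical axis, from 0; mice 1 to 5 in each group), with mean and SD of 5 mice. *Ctgf-203* is at most 2.76 in sham and at least 6.96 in UUO kidneys, and *Wwtr1-202* is above 0.0110 in 4 kidneys only.

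The mouse identifiers fall in 2 number series that both occur in every group, with 1 to 4 mice of a series in each. The full number that opens an identifier occurs in 1 group only, and some mice of a group share it. Effects of whatever this number marks cannot be told apart from those of the groups. Within each series and genotype, the log2 difference between UUO and sham was 3.73 to 4.19 for *Ankrd1*, 2.33 to 3.47 for *Cyr61*, 1.77 to 2.28 for *Ctgf*, 0.73 to 0.93 for *Yap1*, 0.59 to 0.80 for *Lats2* and 0.36 to 0.72 for *Amotl2*. *Lats1* was at 0.19 to 0.46 and *Wwtr1* at -0.21 to 0.25, and *Tead1* ranged from -1.47 to 2.01. What the series mark is not given in the sources used here.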

How the data were processed

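Kidney RNA was enriched with oligo(dT), made into KAPA stranded libraries and sequenced as paired ends. Per the labels, the submitters' processing notes name cutadapt, HISAT2, StringTie and the build GRCm38, with no version. Ballgown is named in the methods of the study for FPKM. The authors deposited FPKM per gene (13842) and per transcript (26228), normalized to transcript length and library size, with no counts. Groups came from the labels, and mice were numbered from 1 to 5 in the order of the records.

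The tests were run with limma 3.58.1 (R 4.3.3) and Python 3.11.15 with scipy 1.17.1. A pseudocount of 1 was added, a filter at a mean of 0.5 FPKM in at least 1 group removed no gene, and limma (eBayes with a trend on the mean) fitted 1 mean per group over all 20 kidneys. The lowest value over genes of the highest group mean was 0.501 FPKM, so genes below 0.5 FPKM in every group were already absent. Benjamini-Hochberg adjustment ran over all genes or transcripts, the threshold was 0.05, and tests were two-sided. The fit was tested on simulated data. The members and lists were chosen with earlier results of these data known. Named were all 9 members, of each other list up to 3 largest rises and falls among called genes, *Kdm6a*, and the 3 most similar genes of 6 members. Pathway genes called between genotypes, single transcripts and the ratios of members were singled out after their values were seen. Pairs of targets were tested by exact permutation of mice within groups. Transcript lengths, exons and introns came from GENCODE vM21 (GRCm38), in which the member transcripts have the positions of the deposited table except *Ankrd1-201*, and start regions from RefSeq (GRCm38.p6).

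Each result was recomputed with 0.1 as the pseudocount, with a filter at 1 FPKM or none, with just the 2 compared groups in the fit, with libraries rescaled to their upper quartile or quantile normalized, with limma array weights, and with the number series as a covariate, a nested F-test with a library-size covariate after Ballgown's description (the Ballgown-like F-test), removal of a trend on transcript length, and leaving out each mouse. The alternatives for pathway lists and pairs, and the differences within number series, were chosen after seeing the data. No fold change, p-value or other result of the authors was used.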

Additional observations from a re-analysis of the deposited data

How the results depend on the processing

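The counts of 7 and 6 members that rose with UUO (KDM6A-Ctrl and KDM6A-TubKO) became 5 and 5 under both upper quartile rescaling and quantile normalization, where 1 member fell in KDM6A-TubKO mice and, under quantile normalization, 1 in KDM6A-Ctrl mice. They were 7 and 6 without any 1 mouse. The Ballgown-like F-test called 0 members and 0 member transcripts in both genotypes and 0 of the pathway genes (53 and 52 otherwise), where it called 0 and 1 of all genes. Its library-size covariate differs between sham and UUO kidneys. Under it, in KDM6A-TubKO mice, *Ctgf* (-0.55), *Lats2* (-0.51), *Cyr61* (-1.69), *Lats1* (-0.28), *Yap1* (-0.22) and *Yap1-202* (-0.15) changed sign, as did *Yap1-201* (-1.49) and *Ctgf-203* (-0.29) in KDM6A-Ctrl mice, with none called. *Lats1* changed sign under upper quartile rescaling (-0.0498 in KDM6A-Ctrl mice, *Lats1-202* -0.0646) and quantile normalization (-0.17, *Lats1-202* -0.11, and -0.0469 in KDM6A-TubKO mice). These scalings lower the median change of all genes. The single member called between genotypes in sham kidneys became 0 when just the compared groups entered the fit, under upper quartile rescaling, quantile normalization, the number series covariate, the Ballgown-like F-test and the length trend removed, and was 0 or 1 without 1 mouse. The cause of these losses was not tested.

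Without 1 mouse, member transcripts called were between 6 and 8 in KDM6A-Ctrl and between 8 and 9 in KDM6A-TubKO mice, pathway genes that rose between 50 and 54 and between 50 and 53, and members called between genotypes in UUO kidneys, members called by the interaction and pairs past adjustment were 0 throughout. No paired analysis was possible because mouse numbers follow record order and the titles carry no number shared between groups. FPKM give no depth, so it cannot be said which low values counting error limits. *Tead1* and low transcripts (*Tead1-204*, *Amotl2-203*) were measured too unevenly for small changes to be seen.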
